A study of Mus musculus with 6 samples.

Results

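Serpinb2 and Timp1, the genes of a pair of secreted or cytosolic protease inhibitors, were measured across 6 RNA sequencing libraries of mouse bone marrow-derived macrophages. They are 2 of the 714 genes in the table used here and were chosen by symbol, with their rise in Senp8+/- cells already known. 3 libraries came from Senp8+/- cells (spelled SENP8+/- in the labels), which carry 1 altered allele of Senp8, whose product is a protease that matures the ubiquitin-like protein NEDD8 and takes it off its targets. The 3 others came from wild type cells. All cells are of C57BL/6 mice, were grown from flushed marrow with 10 ng/ml of the myeloid growth factor GM-CSF over 6 days, and were given streptavidin beads coated with biotinylated mouse CD47, the ligand of the inhibitory receptor SIRPα, 24 h before RNA was taken. The kind of Senp8 mutation, the age and sex of the animals and whether libraries of a genotype come from separate animals are not given in the labels, so the spread between libraries may be technical. No library without CD47 was used here.

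Serpinb2 encodes plasminogen activator inhibitor type 2, a serpin that traps the urokinase and tissue-type plasminogen activators. It is strongly inducible in macrophages, where much of the protein stays in the cytosol. Timp1 encodes tissue inhibitor of metalloproteinases 1, a secreted protein that blocks the active site of matrix metalloproteinases and is made by macrophages, fibroblasts and many other cells under inflammatory stimulation. Plasmin, which the plasminogen activators release, can itself activate matrix metalloproteinase precursors, so both inhibitors act on the same cascade of matrix breakdown.

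Serpinb2 (ENSMUSG00000062345) lies on the plus strand of chromosome 1 from 107511423 to 107535478 and Timp1 (ENSMUSG00000001131) on the plus strand of chromosome X from 20870166 to 20874735, both in GRCm38. The 250 bases before each start are shown because both transcripts were higher in the same cells. The sequences are from RefSeq (GRCm38.p6), at chr1:107511173-107511422 and chrX:20869916-20870165, each on the plus strand. Capitals mark matches, on either strand, to an AP-1 motif (TGANTCA), a CRE core (TGACG), an SP1 box (GGGCGG) or a TATA box (TATAAA).
Serpinb2: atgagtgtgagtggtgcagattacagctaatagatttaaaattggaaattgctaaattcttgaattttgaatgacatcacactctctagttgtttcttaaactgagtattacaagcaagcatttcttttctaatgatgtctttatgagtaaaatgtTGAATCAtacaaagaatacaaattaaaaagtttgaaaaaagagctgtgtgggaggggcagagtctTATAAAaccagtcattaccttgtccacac
Timp1: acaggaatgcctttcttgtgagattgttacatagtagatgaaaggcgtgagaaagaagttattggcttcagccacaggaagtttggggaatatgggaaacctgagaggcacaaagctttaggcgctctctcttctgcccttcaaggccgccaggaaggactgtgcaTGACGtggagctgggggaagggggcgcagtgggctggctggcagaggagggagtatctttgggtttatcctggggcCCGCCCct
The Serpinb2 window held 1 AP-1 match, 94 to 88 bases before the start, and 1 TATA match, 29 to 24 bases before it. The Timp1 window held 1 CRE core, 84 to 80 bases before the start, and 1 SP1 match on the minus strand, 8 to 3 bases before it. None of these 4 motifs was matched in both windows. Across 32851 windows of the same length in the RefSeq table, 6.75% held the AP-1 motif, 12.4% the TATA motif, 17.8% the CRE core and 32.7% the SP1 motif. The ETS core (GGAA), which the windows carry 1 time before Serpinb2 and 6 times before Timp1, was present in 93.4% of all windows. CCAAT was matched 1 time in each window and in 33.8% of all, and the STAT core (TTCNNNGAA) in neither window and in 7.02% of all; the CCAAT match before Serpinb2 shares bases with its GGAA match. The G and C content was 32.4% before Serpinb2 and 54.4% before Timp1, against a median of 52.4% over all windows. A match says only that these letters are there.

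All values are normalised counts: the reads of a gene after division by the size factor of its library. The table is a selection by the authors (unadjusted p under 0.05, with genotypes at least 2-fold apart), so effects in it are on average overstated, and total depths are unknown here. Summed over the listed genes, reads numbered 205957 to 217286 per Senp8+/- library and 439026 to 491156 per wild-type library. Wild-type replicate 3 stood furthest from its group: over the listed genes its reads differed from those of wild-type replicates 1 and 2 with a chi-square per degree of freedom of 50.3 and 91.9, against 19.2 between those libraries and 9.005 to 16.2 between Senp8+/- libraries.

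Serpinb2 had 592, 499.6 and 412 normalised counts in the Senp8+/- libraries, against 74.3, 63.3 and 47.2 in wild type. The lowest Senp8+/- library had 5.55 times the value of the highest wild-type library, so the genotypes did not overlap. The means were 501 ± 89.7 in Senp8+/- and 61.6 ± 13.6 in wild type (SD, n = 3 each), an 8.14-fold rise. The limma fit over all 714 genes gave a difference of 3.01 ± 0.32 on the log2(value + 1) scale (SE). The authors' deposited table gives a log2 fold change of 3.03 and an adjusted p of 1.98e-21. These values placed the gene in the table and led to its choice here, so they describe it and test nothing further.

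Timp1 had 330.4, 422 and 588 normalised counts in the Senp8+/- libraries, against 188, 245 and 89.99 in wild type. The genotypes did not overlap here either, but the gap was narrow, with Senp8+/- replicate 1 at 85.5 normalised counts above wild-type replicate 2. The means were 447 ± 131 in Senp8+/- and 174 ± 78.4 in wild type (SD, n = 3 each), a 2.56-fold rise. The difference on the log2(value + 1) scale was 1.43 ± 0.39 (SE, limma). The authors' deposited table gives a log2 fold change of 1.36 and an adjusted p of 0.0378. By p, Serpinb2 ranked 4 and Timp1 285 among the 295 genes under 0.05 in that table.

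**Figure D1:**
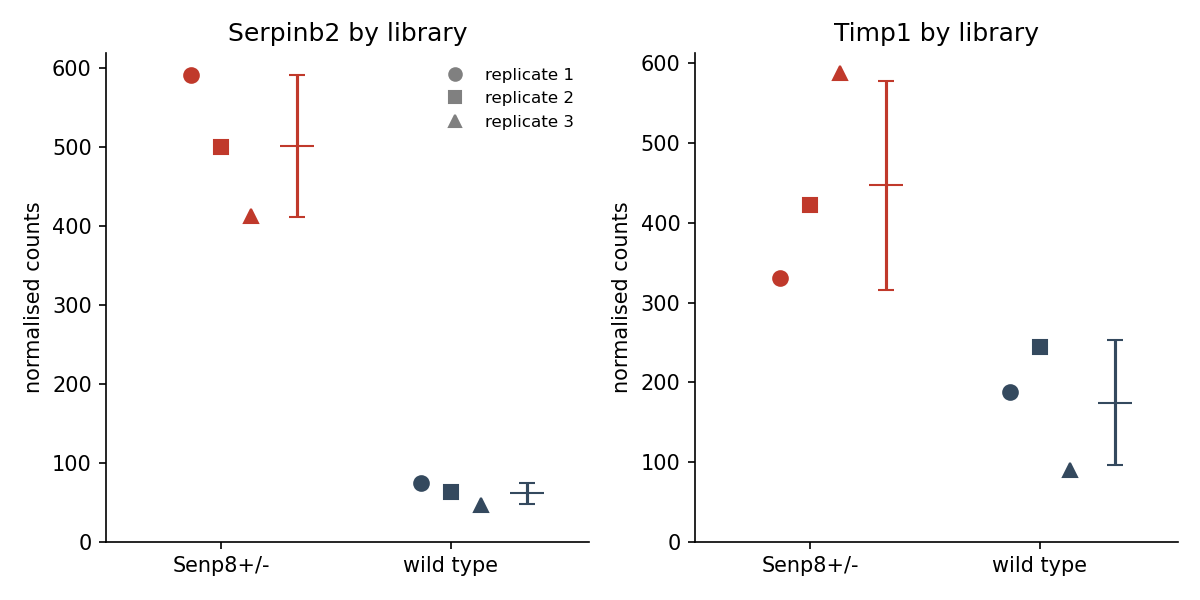
Normalised counts of Serpinb2 (left) and Timp1 (right) in each library, with Senp8+/- in red and wild type in dark grey; the marker shape gives the replicate number, and the bar is the mean ± SD of 3 libraries. Serpinb2 lies between 412 and 592 in Senp8+/- and between 47.2 and 74.3 in wild type, while Timp1 spans 330.4 to 588 in Senp8+/- and 89.99 to 245 in wild type.

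"Rose", "fell" and "called" are used for an adjusted p under 0.05 in the authors' deposited table. Both genes rose, where 7.42% of the listed genes did, 33.9% fell and 41.3% were called in either direction. Because the genes were picked for their rise, nothing is read from that share. Genotypes without overlap were common in the table, at 89.4% of the listed genes. Among the 53 genes that rose, Serpinb2 had the 11th largest fold and the 17th highest mean, and Timp1 the 30th largest fold and the 16th highest mean. Whether more cells made each transcript or each cell made more of it cannot be told apart in bulk RNA.

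The spread between libraries differed between the genes. Serpinb2 rested on 385 to 575 reads per Senp8+/- library and 54 to 75 per wild-type library, and Timp1 on 321 to 549 per Senp8+/- library and 103 to 232 per wild-type library. The coefficient of variation of Serpinb2 was 17.9% in Senp8+/- and 22.1% in wild type, where counting alone gives 4.17 to 5.10% in Senp8+/- and 11.5 to 13.6% in wild type. That of Timp1 was 29.2% in Senp8+/- and 44.96% in wild type, where counting alone gives 4.27 to 5.58% in Senp8+/- and 6.57 to 9.85% in wild type. In both genes the coefficient lay above that of counting, and it was larger for Timp1. Over the 209 listed genes with a mean of at least 100, the median coefficient of variation was 18.8% in Senp8+/- and 30.4% in wild type. Without wild-type replicate 3, the Timp1 means were 447 in Senp8+/- and 217 in wild type, a 2.06-fold difference. Leaving out each library in turn gave Timp1 folds of 2.06 to 3.21 and Serpinb2 folds of 7.29 to 9.07.

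Per length of the gene model, Timp1 was the more abundant transcript in both genotypes. The level per kilobase of Timp1 was 503 ± 147 normalised counts in Senp8+/-, against 196 ± 88.3 in wild type. That of Serpinb2 was 213 ± 38.2 in Senp8+/-, against 26.2 ± 5.80 in wild type (SD, n = 3 each). The ratio of Serpinb2 to Timp1 within a library does not depend on the size factor. On unscaled normalised counts it was 1.79, 1.18 and 0.701 for Senp8+/-, against 0.395, 0.259 and 0.524 for wild type. All 3 Senp8+/- ratios lay above all 3 wild-type ratios, and the difference was 1.58 on the log2 scale. It ran from 1.26 without Senp8+/- replicate 1 to 1.93 without Senp8+/- replicate 3. The Senp8+/- library with the most Serpinb2, replicate 1, had the least Timp1, and the one with the least Serpinb2, replicate 3, had the most Timp1.

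**Figure D2:**
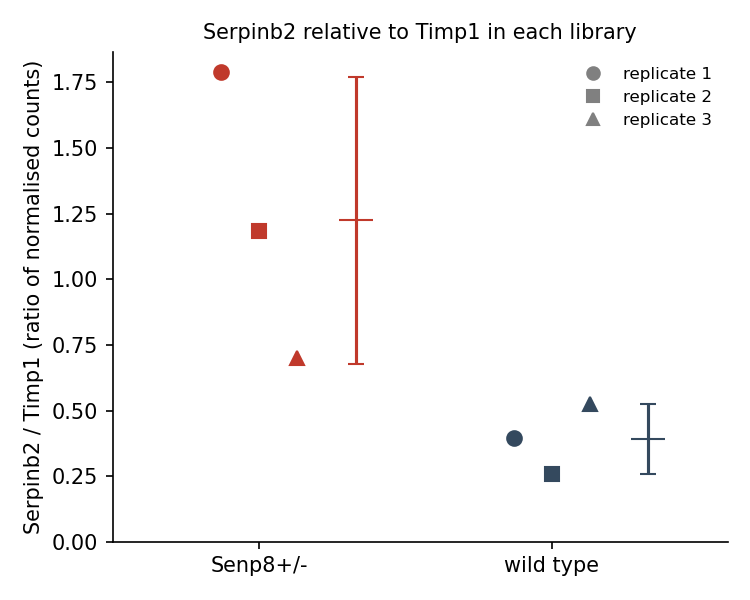
Ratio of Serpinb2 to Timp1 normalised counts within each library, Senp8+/- in red and wild type in dark grey, with the replicate number as marker shape and the mean ± SD of 3 libraries as a bar. The Senp8+/- ratios run from 0.701 to 1.79 and the wild-type ratios from 0.259 to 0.524.

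Reads of overlapping genes could enter either value. The sources used here do not say whether the libraries keep strand. Serpinb2 overlaps its neighbour Serpinb10, on the same strand, by 6476 bases, and in the GENCODE M21 annotation 291 of its 2349 exon bases (12.4%) are also exon of Serpinb10. Timp1 lies inside Syn1, a synapsin gene on the opposite strand, over its whole 4570 bases, but 0 of its 888 exon bases are exon of Syn1. Neither Serpinb10 nor Syn1 was among the listed genes. Serpinb2 stands in a cluster of serpin B genes, with 11 other Serpinb genes within 1 Mb, and 0 of them were listed. Of 33 annotated genes within 1 Mb of Serpinb2 and 49 within 1 Mb of Timp1, 0 were listed.

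The 3 other listed serpins fell, where 33.9% of all listed genes did. Of 61 serpin genes 4 were listed, Serpinb2 higher and Serpina3g, Serpina3f and Serping1 lower. Serpina3g, a mouse serpin that inhibits cysteine cathepsins, fell to 90.1 ± 38.4 in Senp8+/-, against 502 ± 100.3 in wild type. Its close copy Serpina3f fell to 27.8 ± 19.6 in Senp8+/-, against 158 ± 33.6 in wild type, or to 16.5 without Senp8+/- replicate 1. The counting could have split reads between these genes, so the value of each is uncertain. Serping1, the C1 inhibitor of the complement and contact systems, fell to 19.99 ± 7.09 in Senp8+/-, against 79.9 ± 34.7 in wild type.

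Of 28 other protease inhibitors, 3 were listed and 1 was called, where 41.3% of all listed genes were called. The 714 listed genes amount to 4.86% of the 14694 in the authors' correction, though some listed genes fall outside it. Cst7, which encodes cystatin F, an inhibitor of lysosomal cysteine proteases in immune cells, fell to 12.7 ± 1.32 in Senp8+/-, against 65.1 ± 16.2 in wild type. Spint1, an inhibitor of the activator of hepatocyte growth factor, stood at 25.8 ± 2.79 in Senp8+/-, against 9.50 ± 2.34 in wild type, and was not called. Itih5, not called either, had 3.09, 0 and 2.14 normalised counts in the Senp8+/- libraries, against 7.92, 11.6 and 11.4 in wild type. Its Senp8+/- mean lay 5.91-fold below that of wild type over all libraries and 9.61-fold below it without Senp8+/- replicate 1. Of the 8 inhibitors listed under these names, Serpinb2 and Timp1, chosen for it, rose and 4 fell, where 33.9% of all listed genes fell.

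The lists of proteases and partners that the 2 inhibitors act on are given beside a share of 4.86%. That share is the 714 listed genes over the 14694 of the authors' correction, and some listed genes fall outside it. As in the other gene lists, sizes count all annotated members, tested by the authors or not, so the bases are unlike. Of 22 genes of plasminogen activation and fibrinolysis, 2 were listed, Serpinb2 and Thbs1. Neither the plasminogen activator genes Plau and Plat nor the urokinase receptor gene Plaur was listed. Absence from the table can mean a p of 0.05 or more, a difference under 2-fold, no test by the authors, or a row not used here. Thbs1, the matrix protein thrombospondin-1 and a ligand of CD47, fell to 590 ± 178 in Senp8+/-, against 2267 ± 1291 in wild type. Of 6 partners of TIMP-1, 1 was listed, Cd74, the invariant chain of MHC class II and, in human cells, a reported receptor of TIMP-1. Cd74 had 11463, 9486 and 10259 normalised counts in the Senp8+/- libraries, against 35986, 30516 and 32913 in wild type, a fall with no overlap.

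Of 84 genes of metalloproteinases, TIMPs and ADAM or ADAMTS proteins, 10 were listed, 2 higher and 8 lower. Timp1 rose, Adamts15 fell and the other 8 were not called. Adamts15, which cleaves proteoglycans of the matrix, was at 2.41 ± 1.28 in Senp8+/- and 15.5 ± 3.80 in wild type. Mmp10, which encodes stromelysin-2, stood at 5.15, 9.30 and 5.36 normalised counts in the Senp8+/- libraries, against 0, 1.06 and 0.874 in wild type. Mmp23 had 1.03, 0 and 1.07 in the Senp8+/- libraries, against 9.90, 8.45 and 6.12 in wild type. Mmp28 averaged 1.99 ± 0.891 in Senp8+/- cells, against 12.2 ± 6.98 in wild type. Of the 4 Timp genes, Timp1 was the one listed. Of 18 cathepsin genes, 1 was listed, Ctsf, a lysosomal cysteine protease, which fell to 30.9 ± 2.01 in Senp8+/-, against 73.4 ± 20.9 in wild type. Over these protease lists, counted without Serpinb2 and Timp1, 17 genes were listed and 7 called, all 7 lower, close to the 41.3% called over all listed genes.

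**Figure D3:**
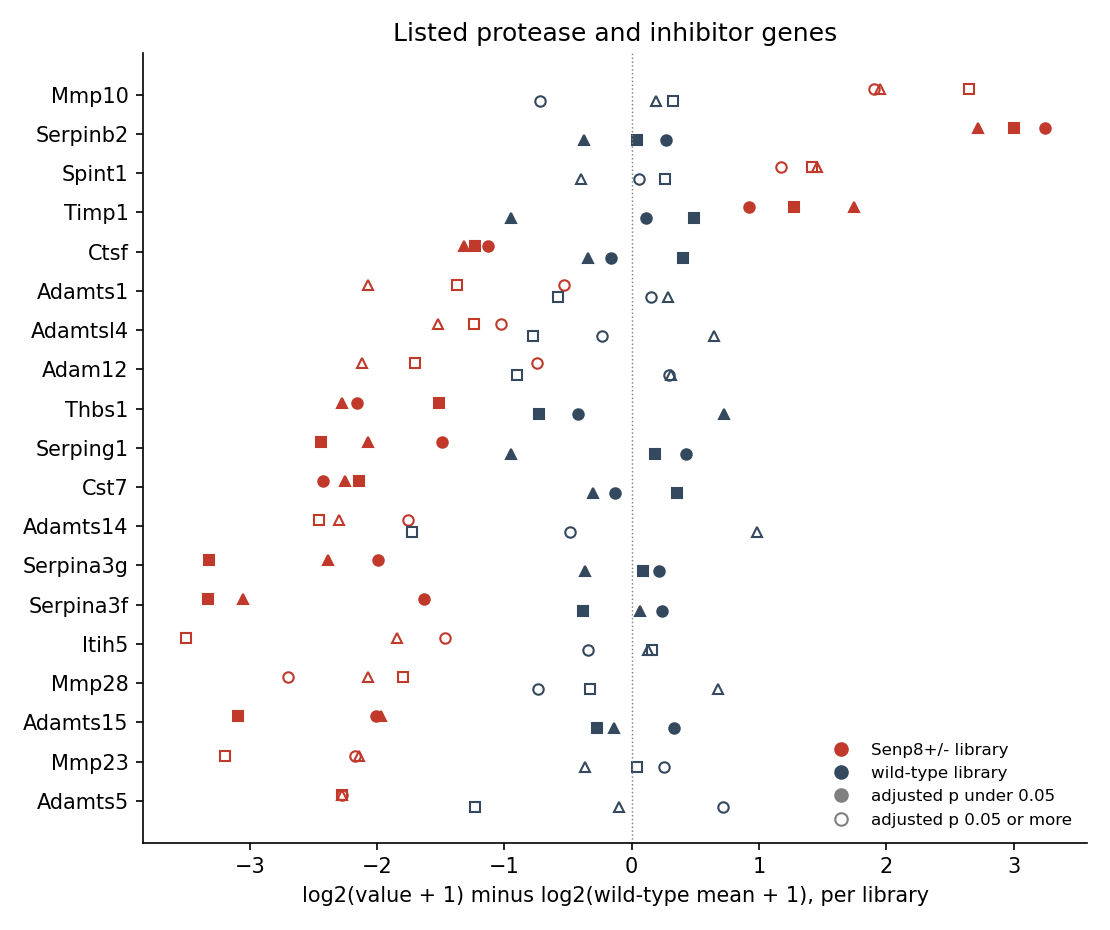
Each row is a listed gene of the protease and inhibitor lists, ordered by the authors' log2 fold change; points are libraries, on the log2(value + 1) scale relative to log2(wild-type mean + 1), Senp8+/- in red and wild type in dark grey, filled where the authors' adjusted p is under 0.05. Of the 19 genes, Mmp10, Serpinb2, Spint1 and Timp1 lie to the right of wild type, and only Serpinb2 and Timp1 of these 4 are filled.

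Matrix genes have products that include substrates of these proteases. Of 26 such genes 12 were listed, 11 lower and 1 higher, and 5 fell, with a median log2 fold change of -1.57. Over all listed genes 79.7% were lower, 33.9% fell and the median was -1.48, so nothing particular to the matrix genes is read from these counts. Loxl2, an enzyme that crosslinks collagen, fell to 11.8 ± 4.04 in Senp8+/-, against 190.4 ± 56.1 in wild type, and Loxl3 to 57.3 ± 14.6, against 153 ± 19.3 in wild type. Col3a1, a fibrillar collagen chain, fell to 82.3 ± 20.9 in Senp8+/-, against 299 ± 192 in wild type. Eln, the elastin gene, fell to 0, 1.86 and 0 in the Senp8+/- libraries, against 19.8, 8.45 and 15.7 in wild type. Thbs1 was the other one that fell. Tnc, the matrix glycoprotein tenascin-C, was the higher one at 13.1 ± 2.03 in Senp8+/-, against 3.56 ± 0.629 in wild type, and was not called.

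A list was made of transcription factors and signals known to induce Serpinb2 or Timp1 (AP-1, ETS and C/EBP factors, cytokines and readouts of ERK signalling). Of its 37 genes 3 were listed, all higher, and 1 was called. The 714 listed genes amount to 4.86% of the 14694 in the authors' correction, though some of them fall outside it. Over all listed genes 79.7% were lower, 7.42% rose and 41.3% were called. The part of these 3 genes in the Serpinb2 and Timp1 results was not tested. Dusp6, a phosphatase of ERK and itself an ERK target, rose to 1860 ± 164 in Senp8+/-, against 779 ± 80.3 in wild type. Fosl1, an AP-1 subunit, had 61.8, 85.6 and 54.6 normalised counts in the Senp8+/- libraries, against 31.7, 32.7 and 35.8 in wild type. Egr1, an immediate early factor, had 287, 259.6 and 174 in the Senp8+/- libraries, against 68.3, 26.4 and 159 in wild type. Fosl1 and Egr1 were not called.

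The genes most like each inhibitor were found as those with the smallest root mean square difference between log2(value + 1) profiles over the 6 libraries, each profile centred on its mean. For Timp1 these were Raet1e, Car2, Dnajc15, Cdkn2a and Spryd7, at differences of 0.147 to 0.22, where the median over the listed genes was 1.58. Car2, a carbonic anhydrase, had 531, 605 and 652 normalised counts in the Senp8+/- libraries, against 226, 306 and 121 in wild type. All 5 had their highest Senp8+/- value in replicate 3 and their lowest wild-type value in replicate 3, and the order of libraries within each genotype was that of Timp1. That order was shared by 51 of 637 other listed genes without ties (8.01%) and by 8 of 47 others that rose. The 5 genes were picked for profiles close to that of Timp1, so nothing is read from the order they share.

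For Serpinb2 the nearest genes were Rgs13, Trim13, Gpat2, Tex11 and G530011O06Rik, at differences of 0.303 to 0.491, where the median over the listed genes was 2.26. Trim13, a ubiquitin ligase gene, was at 312 ± 38.7 in Senp8+/- and 43.1 ± 18.9 in wild type. Rgs13, Gpat2 and Tex11 were listed with 0 reads in the 3 wild-type libraries and means of 7.93, 4.99 and 4.99 in Senp8+/-, so their profiles rest on a few reads. Rgs13, Gpat2 and Tex11, tied at 0 in wild type, can have no library order there. Neither Trim13 nor G530011O06Rik had the library order of Serpinb2, which 12 of 637 other listed genes without ties shared (1.88%). The 2 inhibitors were not close to each other, at a difference of 0.931. Timp1 came in place 63 of the genes nearest to Serpinb2.

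**Figure D4:**
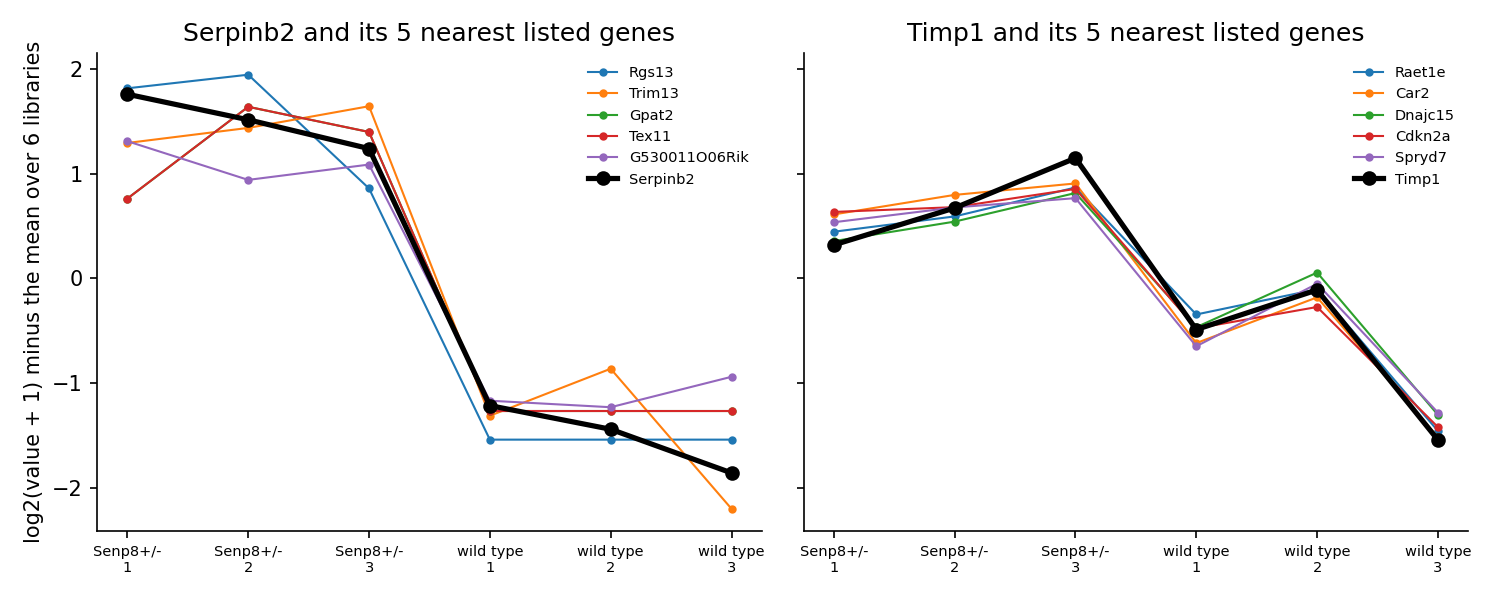
Profiles over the 6 libraries of Serpinb2 (left) and Timp1 (right), in black, with the 5 listed genes nearest to each, in colour, as log2(value + 1) minus the gene's mean over the libraries. The Timp1 group moves together within each genotype and dips in wild-type replicate 3, while the lines around Serpinb2 cross within each genotype; Gpat2 and Tex11 have the same values and lie on each other.

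Timp1 is X-linked, and genes of the Y chromosome differed between the genotypes. Of 6 sex-linked genes checked, Ddx3y, Eif2s3y and Uty, all on the Y chromosome, were listed and rose, and Xist, Tsix and Kdm5d were not listed. Ddx3y, an RNA helicase gene, had 816, 1050.3 and 865 normalised counts in the Senp8+/- libraries, against 245, 307 and 433 in wild type. The 3 genes summed to 2083 to 2751 in the Senp8+/- libraries and 851 to 1075 in the wild-type libraries. Y-linked reads were thus present in all 6 libraries and higher in Senp8+/-. Gm47283, another listed gene with coordinates on the Y chromosome, rose to 56.6, 53.0 and 48.2 in the Senp8+/- libraries, against 0, 1.06 and 1.75 in wild type. It lies from 90784738 to 90816464, far from Ddx3y, Eif2s3y and Uty, which lie between 1010543 and 1286629. Gm47283 is therefore given apart from those 3 genes. In wild-type replicate 3, where Timp1 was lowest, Ddx3y and Uty had their highest wild-type value and Eif2s3y its lowest. Of the 20 listed genes of chromosome X other than Timp1, 11 were higher and 9 lower. Of the 20, 6 rose and 2 fell, beside 7.42% that rose and 33.9% that fell over all listed genes. Of the 6, Mid1, G530011O06Rik, Gm15726 and Gm21887 lie together between 169685199 and 170019281, far from Timp1, which starts at 20870166. The 6 are thus not spread evenly over the chromosome. The part of the make-up of the cultures by sex in the Timp1 result was not tested.

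**Figure D5:**
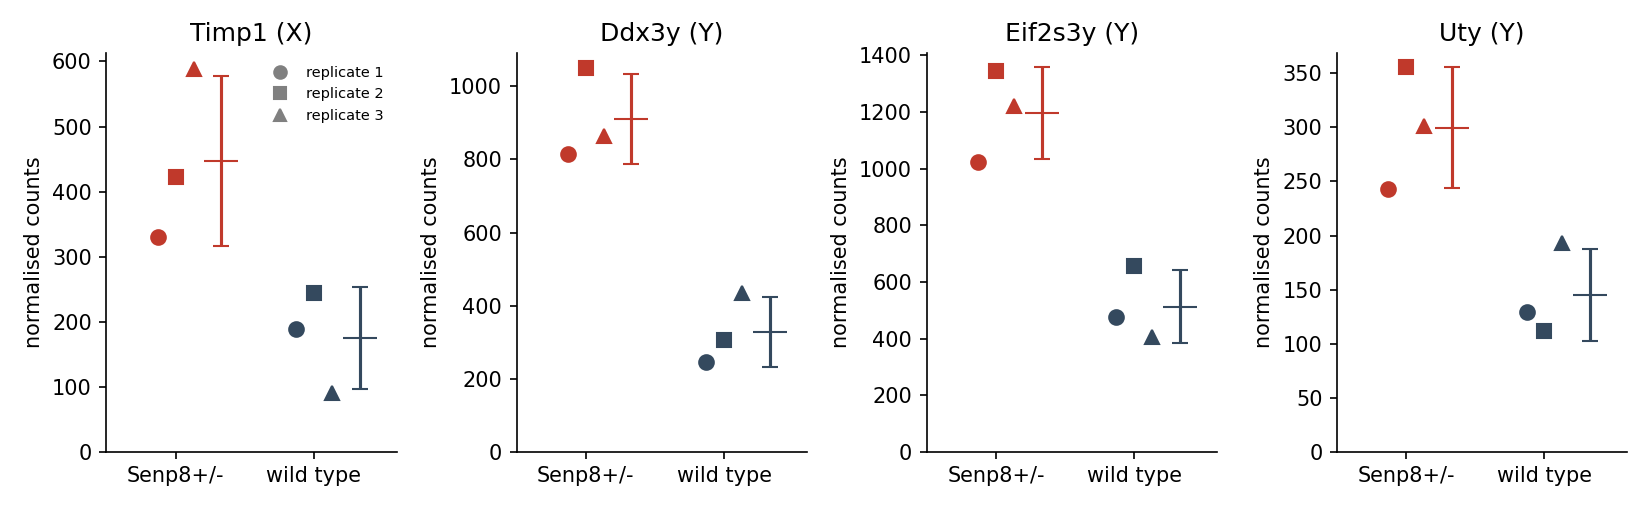
Normalised counts of Timp1 and of the Y-linked genes Ddx3y, Eif2s3y and Uty by library, Senp8+/- in red and wild type in dark grey, with the mean ± SD of 3 libraries. All 3 Y-linked genes are present in the wild-type libraries and lie higher in each Senp8+/- library, Ddx3y at 816 to 1050.3 in Senp8+/- against 245 to 433 in wild type.

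Markers of other cells are given beside the 79.7% of all listed genes that were lower and the 33.9% that fell. Of 12 fibroblast and stromal markers, cells that also make Timp1, 9 were listed, all lower, and 3 fell (Col3a1, Thy1 and Pecam1). Col1a1, Col1a2, Dcn, Pdgfra and Fbn1 overlapped between genotypes and were not called. The summed level of the 9 was 397 to 722 in the Senp8+/- libraries and 723 to 1805 in the wild-type libraries. Of 12 T and NK cell markers 8 were listed and 5 fell (sums of 30.7 to 33.2 in Senp8+/- and 176 to 238 in wild type), with Gzma and Ncr1 at 0 reads in Senp8+/-. Of 12 neutrophil markers 3 were listed and 3 fell (358 to 561 in Senp8+/- and 1187 to 1566 in wild type), with Retnlg at 0 reads in Senp8+/-. Almost all of that sum was Csf3r, with means of 434 in Senp8+/- and 1285 in wild type. Of 6 monocyte markers 4 were listed and 3 fell (337 to 513 in Senp8+/- and 953 to 2107 in wild type). Of 9 dendritic cell markers 1 was listed and fell, Clec9a (9.30 to 16.5 in Senp8+/- and 75.3 to 96.1 in wild type).

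The macrophage list had 2 of 11 markers listed, the complement genes C1qa and C1qc, which were not called (sums of 8169 to 11604 in Senp8+/- and 10922 to 24342 in wild type). The mast cell and basophil list had 1 of 9 listed, Tpsab1, a tryptase, which rose, as did 7.42% of all listed genes. Tpsab1 had 6.18, 26.0 and 23.6 normalised counts in the Senp8+/- libraries, against 3.96, 1.06 and 0.874 in the wild-type libraries. Its 9.47-fold rise came to 19.3-fold without wild-type replicate 1. The part of these cell types in the Serpinb2 and Timp1 results was not tested.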

How the data were processed

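RNA sequencing libraries were grouped by their titles, which read KO or WT with a replicate number, into 3 Senp8+/- and 3 wild-type samples. The KO titles stand beside the SENP8+/- genotype of the labels. The submitters' processing notes name the aligner HISAT2 (2.0.5) and the counter featureCounts (1.5.0-p3). Genome build, annotation, counting options and the authors' test: not given in the sources used here. The deposited signal per library is read counts divided by 1 size factor, in 100% of values a whole multiple of 1 step (tolerance 1e-06 of a read). The reads were recovered from it. The deposited log2 fold changes, p-values and adjusted p-values are the authors' own. The table lists 714 genes (largest p 0.0499, smallest absolute log2 fold change 1.00). The ratio of adjusted to raw p in its first row shows that the authors corrected over 14694 genes. Gpat2, Tex11 and Adamts5 have larger adjusted p-values than listed genes with a larger p. They thus fall outside that correction and count here as not called. Gene lengths and positions are as deposited; 713 identifiers were in GENCODE M21 (GRCm38), 686 with the same start and end. No column of other series was present (0).

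limma 3.58.1 (R 4.3.3, mean-variance trend, genotype as the only term) was fitted to log2(value + 1), with Benjamini-Hochberg adjustment over 14694 genes. It was checked on simulated counts, as were edgeR 4.0.16 and DESeq2 1.42.0 on the recovered reads, scaled as deposited. Alternatives were other pseudocounts, a filter on low values, another scaling, the replicate number as a block and leaving out each library. Libraries of a genotype were not copies of each other (smallest chi-square per degree of freedom 9.005).

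The 2 genes and all lists were chosen with earlier results of these data known, so no test is given for them. Named are the 2 genes, listed members of the lists, the 5 nearest genes of each and the neighbours within 1 Mb. Lists of serpins, metalloproteinases and cathepsins were taken by symbol from protein-coding genes of the annotation. Library sizes are unknown here, and counting error was taken as that of a Poisson count, which covers counting only.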

Additional observations from a re-analysis of the deposited data

How the results depend on the processing

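Serpinb2 and Timp1 stayed higher in Senp8+/- under all 14 alternatives. Their genotypes did not overlap, so no pseudocount or left-out library could turn the sign. Neither the filter on low values nor the replicate block can move the 2 differences. The direction under these settings was thus fixed in advance and is no further support for the rise. On the log2 scale Serpinb2 ranged from 2.84 to 4.02 and Timp1 from 1.01 to 2.44, where the highest values, 4.02 and 2.44, came with libraries rescaled to equal medians of the listed genes. That rescaling moved the median difference of all listed genes by 0.96 and turned the sign of 29 of them, of those in the lists only Pdgfra and C1qc; the listed genes cannot give a scaling. Leaving out each library gave 2.84 to 3.16 for Serpinb2, 1.01 to 1.73 for Timp1 and 1.26 to 1.93 for their ratio, which moved by less than its spread between libraries under all 14 alternatives.

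The fits below ran only on the listed genes, which the authors had already selected from the same libraries. Their counts therefore describe the selection and are no independent check of it. By limma 176 listed genes had an adjusted p under 0.05, of which 27 were higher and 149 lower. The split was 125 higher and 35 lower under the rescaling. edgeR's quasi-likelihood test on the recovered reads called 180 and DESeq2 235. Leaving out each library gave 11 to 181. The counts were 100, 37 and 87 when Senp8+/- replicate 1, 2 or 3 was dropped. They were 11, 112 and 181 when wild-type replicate 1, 2 or 3 was dropped. Fewer samples entered each of these fits, also the one with 181, so the count depended on which library was dropped. With the replicate block the count was 174. Serpinb2, Timp1 and their ratio kept 3.01, 1.43 and 1.58, which the block cannot move because each genotype holds every replicate number. Nothing in the labels ties same-numbered libraries to each other beyond the number. Their deviations from the genotype mean correlated at 0.0101, 0.0441 and -0.243. Such deviations cancel within each genotype, so these values cannot show whether the libraries were paired. The low wild-type counts of Serpinb2, 54 to 75 reads, limit the precision of its fold.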
